A study of Brassica oleracea with 4 samples.

Results

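The genes described here encode 7 calcium sensors with EF-hands and 1 copine, BON3, in hypocotyls of broccoli (Brassica oleracea). They were taken from a table of 135 genes by their Arabidopsis match or their annotation. Both broccoli genes in the table that match each of AT5G39670, AT2G46600 and AT2G41410 were included, together with the genes annotated as CML41 (Bo7g100490) and BON3 (Bo8g112290). That gave 8 of the 135 genes, and all 8 had a value in both groups. A further EF-hand gene of the table, Bo5g034570, falls outside this choice and is given below with the other calcium genes.

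An EF-hand is a helix-loop-helix fold that holds a calcium ion. Proteins with such folds, calmodulin among them, change shape when cytosolic calcium rises and then bind other proteins, so they act as sensors rather than as stores or channels. Copines sense calcium in another way, by attaching to membrane phospholipids when calcium is present. In Arabidopsis the copines of the BONZAI family restrain immune receptors, and the family member BON1 acts together with the plasma membrane calcium pump ACA10.

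Transcripts were measured by RNA sequencing in microgreens aged 10 days. Seedlings of 1 group were sprayed daily with water, and those of the other with calcium chloride at 10 mmol/L. The labels list 2 libraries per group, 4 in all, and name no cultivar. The salt also carries chloride, which the water spray lacks, so the calcium and the chloride of the spray cannot be told apart. The table gives each gene as 1 RPKM per group, a read count scaled to gene length and library total. No spread between libraries can be derived from it, and no difference below was tested. The depth behind the values is unknown. The table holds only genes that differed at least 2-fold, so both the presence and the minimum size of each difference below come with the selection. Its smallest absolute difference was 21.5 RPKM, so a gene low with water stands in it as higher only at a ratio well above 2. Genes outside it, including any other broccoli copies of these sensors, were not analysed here. Fewer cells of a type and less RNA per cell cannot be told apart in such bulk tissue. Transcripts of photosynthesis moved the opposite way in the same libraries. All 12 listed leaf and cotyledon genes were lower with calcium, none of them was at 0, and their summed level went from 15889 to 7147 RPKM. Of the whole table, 64 of 135 genes were lower. The 1 listed root gene was also lower. Higher were 2 of 2 listed seed and embryo genes, beside 52.6% of the table. Among them, Bo9g120390 is annotated with a superfamily of lipid-transfer and seed storage proteins, which does not make it a seed marker. The part of these markers in the values below was not tested.

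All 8 genes were higher with calcium. Of the whole table, 52.6% of genes were at least 2-fold higher, 71 of 135. The ratios of the 8 genes ran from 2.39 to 8.78, with a median log2 ratio of 1.53, beside 1.58 for the other 63 higher genes and 1.04 for the whole table. At least 3-fold higher were 3 of the 8, Bo6g062100, BON3 and CML41, while 25.2% of the table's genes reached that limit in that direction. The other 5 lay between 2-fold and 3-fold. Bo6g062100 and BON3 were under 10 RPKM with water, where the smallest difference in the table, 21.5 RPKM, already exceeds 3-fold. Their place above 3-fold thus came with the selection. The summed level of the 8 genes was 1325 RPKM with water and 3794 RPKM with calcium, a ratio of 2.86. By the size of their ratio the 8 genes ranked from 8 to 55 among the 71 higher genes. Their levels lay much further apart than their ratios, over 133-fold with water and over 71.5-fold with calcium.

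**Figure D1:**
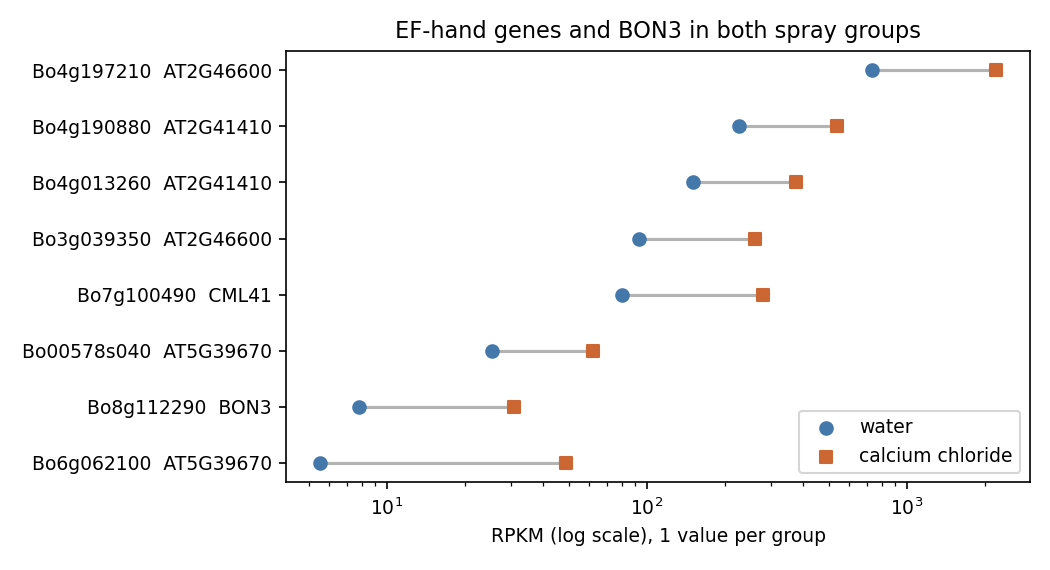
RPKM of the 8 genes on a log axis, with 1 value per group: circles for water and squares for calcium chloride, joined by a line per gene. Every square lies to the right of its circle, and the longest line belongs to Bo6g062100, which went from 5.54 to 48.7 RPKM.

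The AT2G46600 match held the most abundant of the sensors. In Arabidopsis this gene is known as KIC, a small protein with a single EF-hand that binds a kinesin-like calmodulin-binding protein of the microtubules and affects trichome shape. The deposited annotation itself names only the EF-hand family. The level of Bo4g197210 was 737 RPKM under water and 2201 RPKM under calcium, a ratio of 2.98. It had the highest water level of all 71 higher genes and the largest gain in RPKM of the table, 1463. In the calcium group it ranked 2 among the 135 genes, behind the antenna gene Bo4g182560 (LHCB1.3). It alone made up 55.7% of the summed level of the 8 genes with water and 58.0% with calcium. The second copy, Bo3g039350, was at 93.1 and 261 RPKM, a ratio of 2.80.

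Those copies kept almost the same proportion to each other in both groups. Bo4g197210 stood 7.92-fold above Bo3g039350 with water and 8.43-fold above it with calcium. The lower copy supplied 11.2% of the pair's summed RPKM with water and 10.6% with calcium. The ratios of the copies were 1.06 times apart, and the sum of the pair went from 831 to 2462 RPKM. A share within a pair does not depend on how the libraries were scaled, since both copies are scaled alike.

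The AT2G41410 pair behaved much like it, at more even levels. This Arabidopsis gene belongs to the calmodulin-like proteins and carries the name CML35. Bo4g190880 had 225 RPKM under water and 537 RPKM under calcium, a ratio of 2.39 and the lowest of the 8. Bo4g013260 was at 150 and 374 RPKM, a ratio of 2.49. The first copy was 1.5-fold above the second with water and 1.44-fold above it with calcium. The second copy supplied 40.0% of the pair's summed RPKM with water and 41.0% with calcium, so the division between the copies hardly moved. The ratios were 1.04 times apart, and the pair's sum went from 375 to 911 RPKM. In the calcium group Bo4g190880 ranked 8 and Bo4g013260 ranked 14 among the 135 genes.

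The copies matching AT5G39670 went apart. This Arabidopsis gene is the calmodulin-like gene CML46, which has been linked to the control of salicylic acid accumulation. Bo6g062100 had 5.54 RPKM under water and 48.7 RPKM under calcium, a ratio of 8.78 and the highest of the 8. Bo00578s040 was at 25.4 and 61.9 RPKM, a ratio of 2.43. Their ratios were thus 3.61 times apart, or 1.85 on the log2 scale. With water, Bo00578s040 stood 4.58-fold above Bo6g062100, and with calcium only 1.27-fold. The share of Bo6g062100 in the pair's summed RPKM was 17.9% with water and 44.0% with calcium. It supplied 54.2% of the pair's gain, from a sum of 31.0 RPKM to one of 111 RPKM. The more abundant copy remained the more abundant one in both groups.

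**Figure D2:**
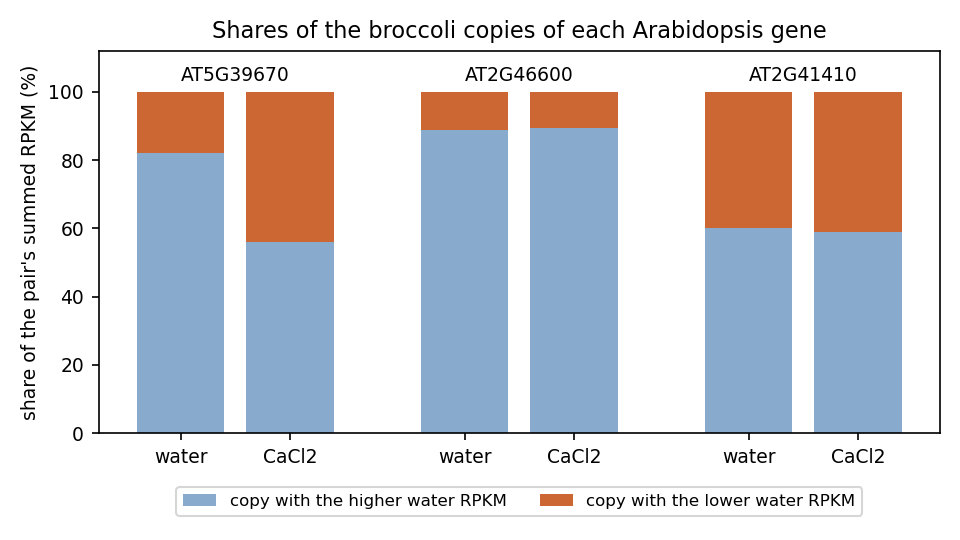
Share of each broccoli copy in the summed RPKM of its pair, in percent, by matched Arabidopsis gene and spray group. The lower copy grew from 17.9% to 44.0% of the AT5G39670 pair, while it went from 11.2% to 10.6% in the AT2G46600 pair and from 40.0% to 41.0% in the AT2G41410 pair.

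In the table, 13 Arabidopsis genes were matched by more than 1 broccoli gene. Copies were more than 1.5 times apart in their ratios for 1 of the 3 sensor pairs, against 38.5% of these 13 Arabidopsis genes. For that pair, AT5G39670, the call came with the selection. At the 5.54 RPKM of Bo6g062100 with water, even the smallest difference in the table, 21.5 RPKM, gives such a distance from the ratio of Bo00578s040. The AT5G39670 pair ranked 2 of 13 in this distance, after the AT1G14870 pair at 3.89 times, and the AT2G46600 and AT2G41410 pairs ranked 10 and 11. The copies of the calcium exchanger gene CAX1 (AT2G38170) were 1.11 times apart. Without values per library it cannot be said which of these distances exceed the spread between replicates. The sources used here do not say how reads shared by near-identical copies were assigned, and the values of single copies are uncertain to that extent.

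**Figure D3:**
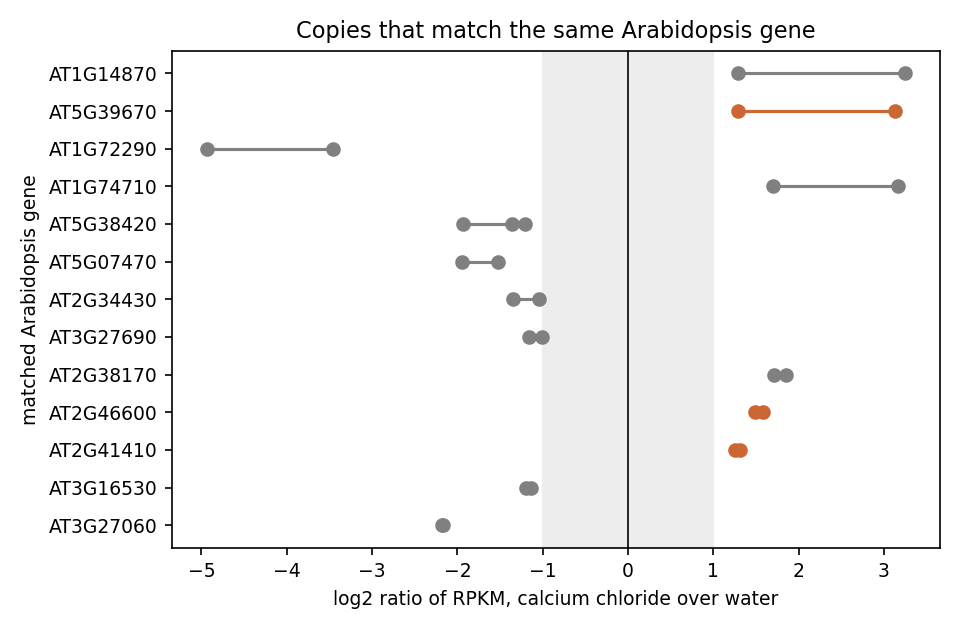
Log2 ratio of RPKM, calcium chloride over water, for the genes that match the same Arabidopsis gene, 1 point per broccoli gene and 1 row per Arabidopsis gene, ordered by the distance between copies. The sensor pairs are in orange, the shaded band marks differences under 2-fold, and the AT5G39670 pair is spread over 1.85 log2 units where the other sensor pairs nearly coincide.

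The size of the Bo6g062100 ratio depends on its low water value. With 5 RPKM added to both groups its ratio was 5.09, that of Bo00578s040 was 2.20, and the copies were 2.32 times apart. The direction of the difference between the copies and the 1.5-fold limit were kept. The authors' deposited table lists an adjusted p-value of 1.27e-06 for Bo6g062100 and of 0.0136 for Bo00578s040, from a test that the sources used here do not name. None of the 135 genes is listed above 0.0423, so a low adjusted p-value is shared by the whole table and can come with the selection.

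**Figure D4:**
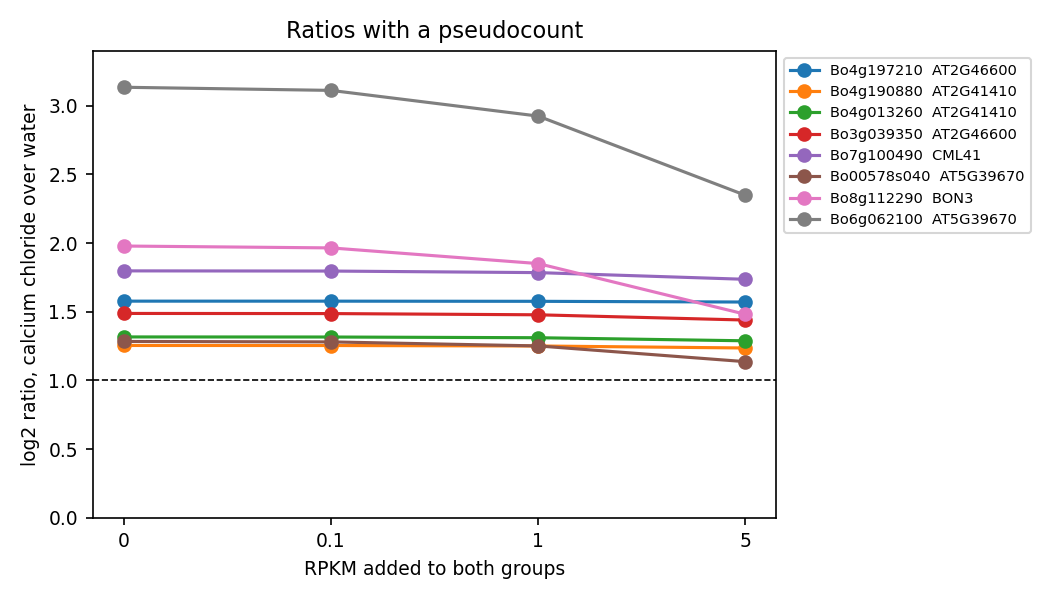
Log2 ratio of RPKM, calcium chloride over water, of each of the 8 genes after adding 0, 0.1, 1 or 5 RPKM to both groups. Every line stays above the dashed 2-fold line, and only the genes with low water values, Bo6g062100, BON3 and Bo00578s040, bend visibly.

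CML41 (Bo7g100490) was the sensor with the largest ratio among those above 50 RPKM with water. In Arabidopsis the calmodulin-like protein CML41 sits at plasmodesmata, the channels between plant cells, and takes part in closing them with callose during immune responses. It had 80.5 RPKM under water and 280 RPKM under calcium, a ratio of 3.48. With water it lay below Bo3g039350, at 93.1 RPKM, and with calcium above it, the latter being at 261 RPKM. These neighbours in the order of levels differ little, and whether they differ beyond replicate spread cannot be said. The list for callose and microtubules, drawn up with the partners of CML41 and of KIC in mind, found 1 gene in the table. It was the beta-1,3-glucanase gene PR-2 (Bo4g111320), whose enzyme class degrades callose, at 40.1 and 115 RPKM. A gene outside the list's words, chosen after its values were seen, lay on the other side: Bo1g054940, annotated only as a glycosyl hydrolase but matching the Arabidopsis glucanase gene AT4G16260, was at 67.0 and 14.6 RPKM, a ratio of 0.218. No kinesin, tubulin or callose synthase annotation matched, which says nothing of genes outside the table.

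BON3 (Bo8g112290) was among the least abundant of the 8 genes. It had 7.81 RPKM under water and 30.8 RPKM under calcium, the lowest calcium value of the 8, and its ratio was 3.94. With 5 RPKM added to both groups the ratio was 2.79, below 3-fold. It also stood close to the edge of the selection. Its difference of 23.0 RPKM was larger than that of only 4 genes of the table, whose smallest was 21.5 RPKM. The authors' deposited table gives it an adjusted p-value of 0.0328, one of the 6 highest of the 135, the highest being 0.0423. In contrast, 5 of the 8 genes, all with more than 80 RPKM with water, were listed at 0. Of the whole table, 30.4% of genes were listed at 0, 41 of 135. Among the 8 genes, BON3 and Bo6g062100 were those under 10 RPKM with water. The calcium pump gene ACA10 (Bo7g114090), whose Arabidopsis counterpart works with the BON3 relative BON1, was at 106 and 293 RPKM, a ratio of 2.76. The patterns of BON1 and BON2 themselves were not analysed here, as no gene of the table matched them.

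The rest of the calcium genes in the table lay on the same side. Besides the 8, the lists for calcium transport and calcium sensing took in 6 genes. Higher with calcium were 6 of the 6, beside 52.6% of all genes of the table. The median log2 ratio of the 6 was 1.54, beside 1.53 for the 8 and 1.58 for all 63 higher genes outside the 8. The EF-hand gene Bo5g034570, which matches AT1G21550, had 18.7 RPKM under water and 57.5 RPKM under calcium, a ratio of 3.07. Calcium transport accounted for the other 5. The CAX1 exchanger genes, which load calcium into the vacuole, had ratios of 3.62 (Bo4g187430) and 3.26 (Bo4g029730). The pumps ACA1 (Bo3g142920) and ACA11 (Bo6g072820), which export calcium from the cytosol, had ratios of 2.20 and 2.07. The summed RPKM of the 6 genes had a ratio of 3.14, next to 2.86 for the sensors and BON3. These lists were matched on annotation words and hold no gene that missed the table, so the shared direction is a description of selected genes.

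A gene further along the calmodulin pathway was also present. The gene annotated as a CaM-binding protein of the 60-like G type (Bo7g094930) matches AT5G26920, known in Arabidopsis as CBP60g, a calmodulin-binding transcription factor that promotes salicylic acid synthesis. It had 6.15 RPKM under water and 29.8 RPKM under calcium, a ratio of 4.84. At its water level, the smallest difference in the table, 21.5 RPKM, already exceeds 3-fold. Its levels were close to those of BON3 in both groups. The differences of these genes, 23.6 and 23.0 RPKM, both lay near that smallest one, so their closeness can come with the selection. On a separate list for salicylic acid, which does not hold Bo7g094930, 8 of 8 genes of the table were higher, beside 52.6% of all its genes. The median log2 ratio of these 8 listed genes was 1.87, beside 1.58 for all 71 higher genes, which include them. Their median water level was 17.0 RPKM, beside 36.3 RPKM for the 71. Genes low with water stand in the table as higher only at large ratios, so the larger median can come with the selection. Their most abundant was PR-4 (Bo3g058570), at 333 and 987 RPKM, out of 476 and 1556 RPKM summed over the list. Whether PR-4 or the other listed genes answer to salicylic acid in broccoli was not tested. No more than this description of selected genes can be read from the list.

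**Figure D5:**
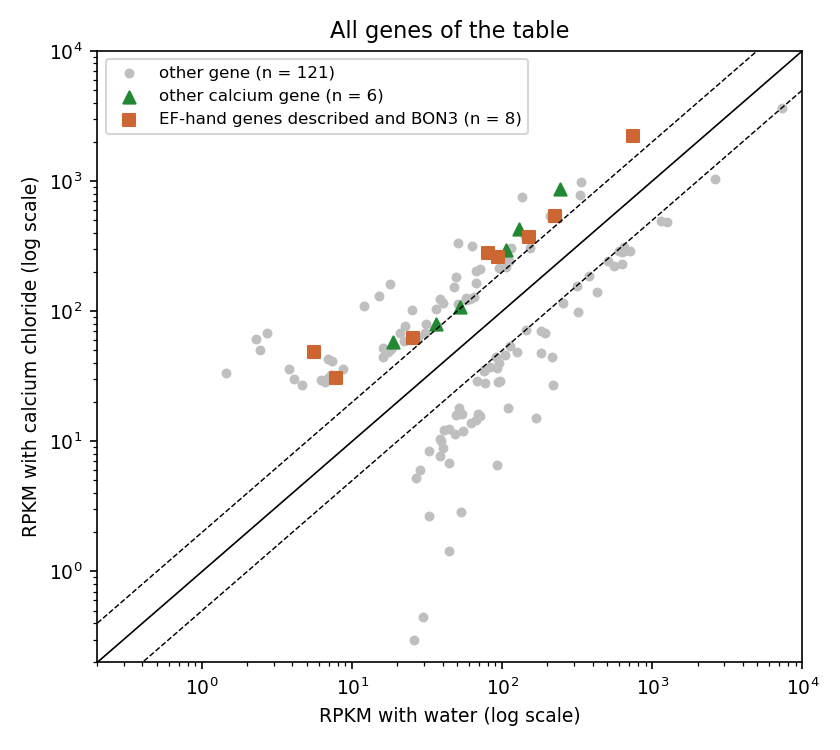
RPKM with water against RPKM with calcium chloride for all 135 genes, on log axes, with the solid line at equality and dashed lines at 2-fold. The 8 genes described (squares) and the 6 other calcium genes (triangles) all lie above the upper dashed line, and Bo4g197210 is the square at 737 and 2201 RPKM.

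Likeness to other genes was measured as the distance between the log2(RPKM + 1) values over the 2 groups, a small distance meaning alike levels in both. With 2 values per gene, it describes position in the table and no more. Only genes with an Arabidopsis match were considered as neighbours. Bo00578s040 lay 0.07 from the cytochrome P450 gene CYP91A2 (Bo1g003710), at 26.6 and 62.0 RPKM. Bo4g013260 lay 0.08 from a lipid transfer protein gene (Bo9g120390), at 142 and 376 RPKM. BON3 lay 0.17 from PR1 (Bo3g088360), at 6.85 and 30.5 RPKM. Genes this low with water stand in the table as higher only from a difference of 21.5 RPKM, so such closeness can come with the selection. Bo6g062100 lay 0.33 from the small GTPase gene ARFA1D (Bo6g094710), at 6.94 and 42.8 RPKM. An aldolase-type gene (Bo3g101500), at 104 and 254 RPKM, was nearest both to Bo3g039350, at 0.16, and to CML41, at 0.39. Bo4g190880 lay 0.71 from CAX1 (Bo4g187430). For 2 of the 8 genes a gene without an Arabidopsis match was nearer, Bo5g017220 at 0.12 from Bo4g190880 and Bo9g175020 at 0.12 from BON3. Bo4g197210 had no close counterpart, its nearest being PR-4 (Bo3g058570) at a distance of 1.63.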

How the data were processed

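RNA of hypocotyls sprayed with water or calcium chloride was sequenced. The submitters' processing notes name CASAVA, with no version. Not given in the sources used here are the aligner, genome build, annotation and the way libraries of a group were combined. Per the file headers, the authors deposited 1 RPKM value per gene and group, and the control column was read as the water group. The authors' deposited log10 columns were checked to be the log10 of the RPKM columns. The authors' deposited signed fold change was treated as a score because it has no fixed range. It was checked to equal the ratio of the RPKM values for higher genes, and the inverse ratio with a minus sign for lower genes. An adjusted p-value per gene was deposited too, without the name of its test.

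Ratios are calcium over water RPKM with no pseudocount. The planned test needs a value per library, so none was run and no interval is given. The genes, lists and limits of 2-fold, 3-fold and 1.5 times between copies were chosen with earlier results of these data known. The text names the 8 genes, the listed calcium genes with their partners, and for each of the 8 the nearest gene that has an Arabidopsis match. The RefSeq gene table at hand held 0 of the 135 identifiers, so names come from the deposited annotation and, for Arabidopsis matches, general knowledge. The ratio computation was tested on simulated data without noise and recovered 100% of 30 changed genes, which checks the arithmetic only. Pseudocounts of 0.1, 1 and 5 RPKM, a filter of 10 RPKM and equal summed RPKM were tried. Python 3.11.15, NumPy 2.4.6, pandas 2.3.3 and matplotlib 3.10.9 were used.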

Additional observations from a re-analysis of the deposited data

How the results depend on the processing

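Under 5 alternatives the log2 ratios of the 8 genes gave 38 values, and 38 of the 38 stayed above 2-fold. Their direction could not change, since a pseudocount never turns a ratio, the filter leaves values as they are and the rescaling raises all alike. For the same reason only the pseudocounts could have brought a ratio below 2-fold. The median of the 6 other calcium genes, recomputed under the pseudocounts and the rescaling, a choice made after seeing the data, ran from 1.41 with 5 RPKM added to 1.72 with the rescaling. The number of genes at least 3-fold higher, 3 as deposited, was 2 with 5 RPKM added, where BON3 fell below the limit. Keeping only genes with at least 10 RPKM in both groups removed Bo6g062100 and BON3 and left 1 of 6 genes at 3-fold, CML41. That filter also left 0 of 2 pairs more than 1.5 times apart, because it removed a copy of the AT5G39670 pair. Rescaling calcium to an equal summed RPKM of the 135 genes raised every log2 ratio by 0.18 and the count at 3-fold to 5, and changed no distance between copies. That sum rests on selected genes and does not normalize the libraries. No paired analysis was possible because the table holds 1 value per group, and no library could be left out for that reason. The depth is unknown, so the counting error of the low values of Bo6g062100 and BON3 could not be given.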
